A study of Mus musculus with 16 samples.

Results

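Cytochrome P450 enzymes (P450s) are haem proteins that insert an oxygen atom into lipids, steroids, drugs and toxins. Those of the endoplasmic reticulum draw their electrons from NADPH through P450 oxidoreductase, encoded by Por. In the mouse kidney many of them are made in the proximal tubule, where they hydroxylate fatty acids, form signalling lipids from arachidonic acid and turn over sterols and xenobiotics, and several are known to depend on androgens.

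The enzymes described here are 9 P450s, Cyp4a10, Cyp4a14, Cyp4a12a, Cyp4b1, Cyp2j5, Cyp2e1, Cyp2d26, Cyp7b1 and Cyp51, together with Por. They were taken by gene symbol, as 10 of the 40472 genes in the deposited count table. The table holds 118 genes whose symbol is Cyp followed by a number, of which 36 passed the filter on low counts. All 10 genes described passed it, among 13614 genes tested.

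Poly(A) RNA was sequenced from kidneys of male C57BL/6 mice aged 12 weeks, in 4 groups of 4 libraries. IRP mice underwent ischemia reperfusion, in which the blood supply of the kidney is interrupted and restored, and received PJ34, an inhibitor of poly(ADP-ribose) polymerases. IRV mice had the same injury and received vehicle. NP mice were not injured and received PJ34, and NV mice were not injured and received vehicle. The series asks what the inhibitor does to the kidney at a later time after this injury. Neither the day of collection nor a sham operation of the uninjured mice is stated in the labels. Nor do they say that replicates are separate animals, so the spread behind each p-value is that between libraries and may be technical.

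The libraries differed in depth, and the depth ran partly with the groups. Deep libraries, with totals of 4963638 to 6169748 counts, were all of IRP plus replicates 3 and 4 of IRV. Shallow libraries, with totals of 973812 to 1659983, were the remaining 10. Levels are given in CPM, the depth-scaled read count. The summed level of olfactory, vomeronasal, trace amine and taste receptor genes was 6439 to 11380 CPM across the shallow set but 246 to 519 CPM across the deep set. All IRP libraries were deep and all NP libraries shallow, so injury and library set cannot be told apart in that comparison except through IRV, whose libraries fall in both sets. CPM values here are divided by library sizes scaled with the TMM method.

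The kidney origin of the libraries showed in their markers, whose counts are to be read against all tested genes, of which 11.1% fell and 15.9% rose in IRV against NV and 24% fell and 19.6% rose in IRP against NP. Of 22 proximal tubule markers, all were tested, 20 fell in IRV against NV and 18 fell in IRP against NP, with median log2 fold changes of -1.02 and -0.83. Their summed level was 15010 to 31030 CPM in IRP, 14630 to 22150 in IRV, 32290 to 40550 in NP and 33900 to 35260 in NV. All 10 tubular injury markers rose in IRV against NV and 9 rose in IRP against NP. All 10 macrophage markers rose in both comparisons and 8 of 10 fibroblast markers rose in each. In bulk tissue, fewer cells of a type and less RNA per cell cannot be told apart, and that holds for every enzyme below. The 8 markers of liver, the organ richest in P450s, summed to 79.3 to 149.6 CPM in IRP, 51.4 to 158.6 in IRV, 97.1 to 183.8 in NP and 105 to 118.8 in NV. Among them Alb, which encodes serum albumin, averaged 6.23 CPM in IRP, 15.9 in IRV, 10.8 in NP and 12.6 in NV, and Apoa1 was listed at 0 in all NP and NV libraries. Of the 3 liver markers tested, 0 changed in IRV against NV and 1, Ttr, fell in IRP against NP. None of the 8 adrenal markers in the table passed the filter, and their sum was at most 27.9 CPM in any library. Adipose markers rose, 3 of 4 in IRV against NV and 4 of 4 in IRP against NP, with summed levels of 40.4 to 201.7 CPM in IRP, 67 to 103.3 CPM in IRV, 11.7 to 33.6 CPM in NP and 13.4 to 34.2 CPM in NV. Of 8 endothelial markers 3 rose in each comparison, and of 6 markers of the loop of Henle and distal tubule 3 fell in each. Of 6 markers of the last proximal tubule segment 2 fell in IRV against NV and 0 in IRP against NP, and of 9 collecting duct markers 0 and 2 rose, counts too small to set against those shares. The part of these other cell types in the enzyme values was not tested.

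Of the 10 enzymes, 7 fell in injured kidneys that received vehicle and 6 in injured kidneys that received PJ34, and none rose. In IRV against NV the 7 were Cyp4a14, Cyp51, Cyp4a10, Cyp2j5, Cyp2d26, Por and Cyp4a12a, against a background of 11.1% of all tested genes that fell and 15.9% that rose. In IRP against NP the 6 were the same genes without Cyp4a12a, against a background of 24% that fell and 19.6% that rose. Averaged over both treatments, 9 of the 10 fell, against 29.7% of all genes that fell and 25.7% that rose, and the exception was Cyp2e1. The median log2 fold change over the 10 was -0.96 in IRV against NV and -0.81 in IRP against NP, beside -0.03 and -0.01 over all tested genes. The IRV values lay wholly below the NV values for 7 enzymes, as for 11.9% of all genes, and the IRP values wholly below the NP values for 5, as for 21.2%. With both treatments pooled, 4 enzymes, Cyp4a14, Cyp2j5, Cyp51 and Por, did not overlap, as for 3.25% of all genes. Since the enzymes were chosen with earlier results of these data known, setting them against these shares is a description and not a test.

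**Figure D1:**
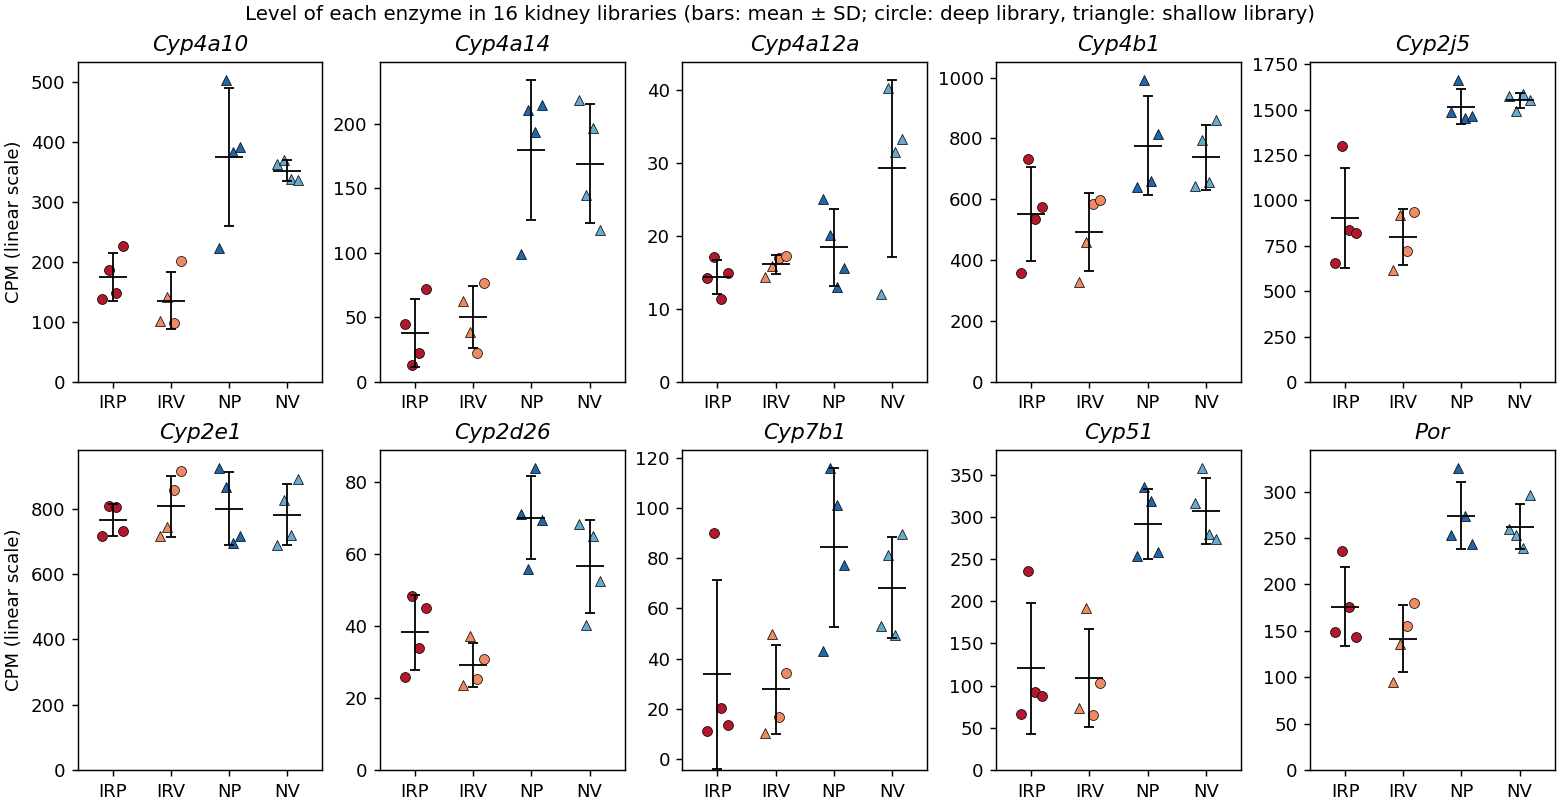
Level of each enzyme in CPM (linear axis) in each library of the 4 groups, with bars for mean ± SD (n = 4) and a separate scale for each gene. Injured kidneys lie below uninjured ones for most genes, Cyp2e1 stays between 691 and 924 CPM in every library, and the highest IRP point for Cyp51 and Cyp7b1 is replicate 2. The SD bar of Cyp7b1 in IRP reaches below 0 because of that library.

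These calls depend on how the libraries are scaled. Scaled by library totals alone, all tested genes had a median of 0.49 in IRV against NV and 0.57 in IRP against NP. Then 4 enzymes were lower (1.81% of all genes) and Cyp2e1 was higher (42% of all genes) in IRV against NV. In IRP against NP 2 were lower (13.1%) and Cyp2e1 was higher (51.5%), and averaged 6 were lower (14.1%) and Cyp2e1 higher (58.9%). With the proximal tubule marker sum as the scale, the median of all genes was 0.83 and 0.77. On that scale Cyp4a10 and Cyp51 were lower in IRV against NV (0.492% of all genes) and Cyp4a14 and Cyp51 in IRP against NP (11.5%). Cyp2e1 was higher in each (58% and 57.6%), and averaged 4 enzymes were lower (10.3%) and Cyp2e1 higher (69.2%). The falls below are therefore relative to the typical gene of the whole kidney. With library set as a covariate, 4 enzymes were called in IRV against NV (background 6.13%) and 1, Por, in IRP against NP (background 0.786%), with 5 averaged (background 4.66%). Within the shallow libraries alone, 7 enzymes fell in IRV against NV, against 6.83% of all genes, with Cyp4b1 among them and Cyp4a12a not. That set, here and below, holds only replicates 1 and 2 of IRV beside all 4 libraries of NV.

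The fatty acid hydroxylases of the Cyp4a family lie near each other on mouse chromosome 4. Those compared here run from base 115299046 at the start of Cyp4a12a to base 115621602 at the end of Cyp4a32 in GENCODE M21 on the GRCm38 build, which is not the build of the counts. Their near copies matter for the counts, since Salmon estimates how reads that match several transcripts are shared. The stretches below are the 30 coding bases around the haem-binding cysteine, read from the GENCODE M21 transcripts, and the capitals mark the cysteine codon. They are shown because the Cyp4a members differ so little there. The signature was matched in 8 of the 9 P450s described, all but Cyp7b1.
Cyp4a10: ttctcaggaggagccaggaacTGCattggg
Cyp4a14: ttctcaggaggatcaaggaacTGCattggg
Cyp4a12a: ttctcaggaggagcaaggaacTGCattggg
Cyp4b1: ttttctgcagggcccaggaatTGCattggg
Cyp2j5: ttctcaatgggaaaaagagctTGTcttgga
Cyp2e1: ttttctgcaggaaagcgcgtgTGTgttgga
Cyp2d26: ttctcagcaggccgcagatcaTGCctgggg
Cyp51: tttggagctgggcgtcatcgtTGTgttgga

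The Cyp4a10 stretch differed from that of Cyp4a12a at 1 of 30 bases, from Cyp4a14 at 2 and from Cyp4b1 at 6, and it was the same in the near copies Cyp4a31 and Cyp4a32. Over the whole coding sequence, Cyp4a10 was 96.6% identical to Cyp4a31 and 97.2% identical to Cyp4a32. Cyp4a12a was 98.5% identical to Cyp4a12b, with an identical run of 342 bases. Cyp4a14 was 75.1% identical to Cyp4a10, with no identical run longer than 23 bases.

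Cyp4a14, a fatty acid hydroxylase induced by PPAR-alpha ligands, had the largest fall of the 10 in each injury comparison. It held 44.6, 12.9, 22.3 and 71.7 CPM in IRP replicates 1 to 4, against 99.0, 210.5, 193.6 and 214 CPM in NP replicates 1 to 4. It held 62.7, 38.9, 22.6 and 76.5 CPM in IRV replicates 1 to 4, against 218, 144.4, 196.3 and 117.4 CPM in NV replicates 1 to 4. Every injured library lay below every uninjured one. Its log2 fold change was -2.24 ± 0.44 (SE; adjusted p = 0.00085) in IRP against NP and -1.76 ± 0.45 (adjusted p = 0.0081) in IRV against NV, or 4.73-fold and 3.4-fold lower. Fitted with library set as a covariate the sizes were -2.25 ± 0.76 and -1.77 ± 0.59, with adjusted p-values of 0.11 and 0.052.

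Cyp4a10, the family's best known PPAR-alpha target, also fell in both comparisons. Its values were 137.9, 187, 148.3 and 225.8 CPM in IRP, against 222.9, 502.9, 383.9 and 391.3 CPM in NP. In IRV they were 101.8, 141, 98.1 and 201.3 CPM, against 363.3, 370.1, 338.5 and 336.7 CPM in NV. The IRV and NV values did not overlap, while the highest IRP library lay just above NP replicate 1. The log2 fold change was -1.11 ± 0.24 (adjusted p = 0.0016) in IRP against NP and -1.36 ± 0.24 (adjusted p = 7e-04) in IRV against NV. With its near copies Cyp4a31 and Cyp4a32 added to it, the fall was -0.92 ± 0.21 and -1.04 ± 0.21, still past the threshold in each. Fitted with library set as a covariate, Cyp4a10 alone was not called in IRP against NP. The ratio of Cyp4a14 to Cyp4a10, a measure chosen after the values were seen, was 0.215 ± 0.126 in IRP and 0.478 ± 0.0581 in NP (SD, n = 4 each). It was 0.376 ± 0.172 in IRV and 0.48 ± 0.129 in NV. IRP replicate 2 had the lowest ratio of all libraries, 0.0688.

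Cyp4a12a, which in male mice makes the vasoactive eicosanoid hydroxyeicosatetraenoic acid from arachidonic acid, was the scarcest of the 10 by counts, with 85 counts over the 4 NP libraries and 134 over the 4 NV libraries. It held 14.3, 17.0, 11.3 and 14.9 CPM in IRP, against 25.0, 20.1, 13.1 and 15.6 CPM in NP. It held 14.4, 15.8, 16.9 and 17.3 CPM in IRV, against 12.0, 40.2, 31.5 and 33.2 CPM in NV. The NV libraries spread widely, with replicate 1 below every IRV library. Cyp4a12a fell in IRV against NV (log2 fold change -0.83 ± 0.26, adjusted p = 0.027), a call lost without NV replicate 2 (-0.64, adjusted p = 0.11) or NV replicate 4 (-0.81, adjusted p = 0.059). With Cyp4a12b added, the value was -0.53 ± 0.25 (adjusted p = 0.12). In IRP against NP its log2 fold change was -0.37 ± 0.27 (adjusted p = 0.29).

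Cyp4b1, which oxidises fatty acids and activates pneumotoxins such as ipomeanol, was past the threshold only when both treatments were averaged. Its values were 356.8, 733, 536.7 and 574.5 CPM in IRP, against 639, 991.6, 660.1 and 815.3 CPM in NP. They were 326.9, 458.3, 584.9 and 599.3 CPM in IRV, against 642.9, 794.8, 656.3 and 860.2 CPM in NV. All IRV libraries lay below all NV libraries, while IRP replicate 2 reached into the NP range. The fitted log2 fold change was -0.50 ± 0.22 (adjusted p = 0.077) in IRP against NP, -0.58 ± 0.22 (adjusted p = 0.061) in IRV against NV and -0.54 ± 0.16 (adjusted p = 0.0074) averaged. Without IRP replicate 2 it was called in IRP against NP (-0.75, adjusted p = 0.012), as it was without IRV replicate 4 or without NP replicate 1 or 3. In IRV against NV it was called without any 1 of IRP replicates 1 and 2, IRV replicate 4, and NP replicates 1 and 3, with IRV replicate 4 giving the largest fall (-0.76, adjusted p = 0.035). Within the shallow libraries its IRV against NV value was -0.91 ± 0.21 (adjusted p = 0.0067).

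Cyp2j5, an arachidonic acid epoxygenase, was the most abundant P450 of the uninjured kidney per length of transcript. It stood at 647 ± 41.8 CPM per kilobase in NP and 662 ± 17.7 in NV (SD, n = 4 each), and ranked first of the P450s there. Lengths are those of the longest protein-coding transcript of each gene in GENCODE M21. It held 653.9, 1298, 834.4 and 822.9 CPM in IRP, against 1487, 1663, 1455 and 1465 CPM in NP. It held 614.7, 919, 720.9 and 934.2 CPM in IRV, against 1576, 1494, 1587 and 1556 CPM in NV. Neither pair of groups overlapped, and IRP replicate 2 came nearest to the uninjured range. Its log2 fold change was -0.75 ± 0.18 (adjusted p = 0.0033) in IRP against NP and -0.96 ± 0.18 (adjusted p = 0.0011) in IRV against NV. Fitted with library set as a covariate, Cyp2j5 was not called in IRP against NP. The IRV against NV value was -1.02 ± 0.18 within the shallow libraries. Scaled to the proximal tubule markers, it was -0.06 ± 0.10 and -0.11 ± 0.10 in the 2 comparisons, neither past the threshold.

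Cyp2e1, which oxidises ethanol, acetone and other small molecules, stood apart from the rest. It held 716, 807.8, 806.5 and 732.1 CPM in IRP, against 924.4, 868.1, 694.8 and 716.1 CPM in NP. It held 715.4, 745.1, 856.3 and 915 CPM in IRV, against 690.8, 827.3, 719.4 and 891.9 CPM in NV. The groups overlapped throughout. The averaged log2 fold change was -0.01 ± 0.09, with a 95% interval of -0.21 to 0.19, so a change in CPM of the size seen for Cyp2j5 lay outside it, though on the proximal tubule scale the averaged value was 0.81 ± 0.12 (adjusted p = 1.8e-05) and with library totals 0.54 ± 0.12 (adjusted p = 0.00081). As a share of all P450 CPM, a measure chosen after the values were seen, Cyp2e1 made up 23.0 ± 2.23% in IRV and 14.4 ± 1.18% in NV (SD, n = 4 each). Its share was 20.8 ± 3.26% in IRP and 14.5 ± 2.49% in NP, and no test is given, since the share restates a level that held while the P450 sum was lower. Per length, Cyp2e1 ranked first of the P450s in injured kidneys, at 418 ± 26.4 CPM per kilobase in IRP and 441 ± 51.1 in IRV. Cyp2j5 was next at 385 ± 118 and 340 ± 66.4, and in IRP the 2 did not differ beyond their spread. In CPM the IRP order was reversed, with Cyp2j5 at 902 ± 277 and Cyp2e1 at 766 ± 48.4. Within libraries, Cyp2e1 was above Cyp2j5 per kilobase in 4 of 4 IRV libraries and 3 of 4 IRP libraries, the exception being IRP replicate 2. Cyp4b1 had rank 3 in all 4 groups. Among the other enzymes described, the order in NV was Cyp4a10 at 167 ± 8.09 CPM per kilobase, Cyp51 at 78.1 ± 9.87, Cyp4a14 at 67.7 ± 18.5, Cyp2d26 at 33.2 ± 7.54, Cyp7b1 at 31.6 ± 9.26 and Cyp4a12a at 12.1 ± 4.99. Per kilobase, Cyp51 and Cyp4a14 did not differ beyond their spread, nor did Cyp2d26 and Cyp7b1. In CPM, Cyp51 stood at 307 ± 38.8 and Cyp4a14 at 169 ± 46.2 in NV, without overlap.

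Cyp2d26, a member of the drug-metabolising CYP2D family, fell in both comparisons without overlap in either. It held 25.7, 48.4, 33.8 and 44.9 CPM in IRP, against 71.1, 55.8, 83.7 and 69.5 CPM in NP. It held 23.6, 37.1, 25.1 and 30.8 CPM in IRV, against 68.4, 40.2, 64.8 and 52.5 CPM in NV. The log2 fold change was -0.87 ± 0.21 (adjusted p = 0.0027) in IRP against NP and -0.95 ± 0.22 (adjusted p = 0.0041) in IRV against NV. With library set as a covariate it was -0.71 ± 0.37 (adjusted p = 0.33) and -0.85 ± 0.29 (adjusted p = 0.06).

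Por, the electron donor that the other members share, fell alongside them. Its values were 148.4, 236.1, 175.8 and 143.5 CPM in IRP, against 253.7, 325.1, 274 and 243.7 CPM in NP. They were 94.6, 135.5, 154.9 and 180.1 CPM in IRV, against 259.9, 253.4, 239.5 and 296.5 CPM in NV. Every injured library lay below every uninjured one. The fitted log2 fold change was -0.64 ± 0.18 (adjusted p = 0.0087) in IRP against NP and -0.87 ± 0.18 (adjusted p = 0.0022) in IRV against NV. Por was the only one of the 10 called in IRP against NP with library set as a covariate, where it was -1.17 ± 0.28 (adjusted p = 0.026), and it was -1.17 ± 0.19 in IRV against NV within the shallow libraries. Scaled to the proximal tubule markers it was 0.08 ± 0.14 and -0.04 ± 0.15, neither past the threshold.

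**Figure D2:**
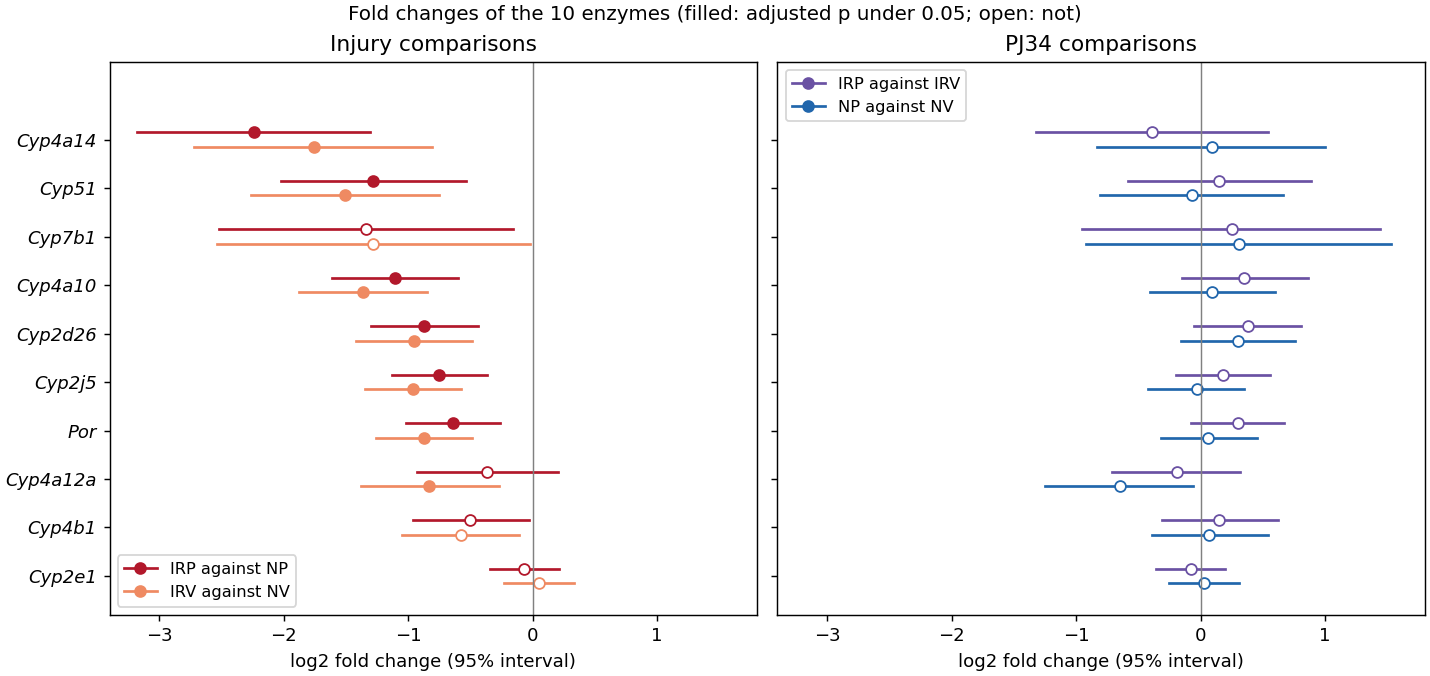
Log2 fold changes with 95% intervals for the 10 enzymes, injury comparisons (IRP against NP above IRV against NV) on the left and PJ34 comparisons (IRP against IRV above NP against NV) on the right. Filled points have an adjusted p under 0.05; on the left most points lie left of 0 with Cyp4a14 farthest at -2.24 and -1.76, and on the right no point is filled.

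The sterol enzymes varied among injured libraries, and replicate 2 was the highest library of each injured group for both. Cyp51, lanosterol demethylase of cholesterol synthesis, held 66.3, 235.9, 91.9 and 87.7 CPM in IRP, against 253.7, 335.5, 318.6 and 258.5 CPM in NP. It held 74.0, 192.1, 65.5 and 102.9 CPM in IRV, against 316.3, 357.7, 280 and 273.3 CPM in NV. All injured libraries were below all uninjured ones, and replicate 2 was the highest of each injured group. Its log2 fold change was -1.28 ± 0.35 (adjusted p = 0.0071) in IRP against NP and -1.51 ± 0.36 (adjusted p = 0.005) in IRV against NV. Without IRP replicate 2 the IRP against NP value was -1.92 ± 0.29 (adjusted p = 0.00015). Cyp51 was past the threshold in both comparisons on all 3 scales, at -0.68 ± 0.23 and -0.69 ± 0.24 relative to the proximal tubule markers. Fitted with library set as a covariate it was -0.59 ± 0.55 (adjusted p = 0.64) and -1.17 ± 0.41 (adjusted p = 0.066).

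Cyp7b1, the oxysterol hydroxylase, also spread among injured libraries. It held 11.2, 90.04, 20.4 and 13.7 CPM in IRP, against 43.2, 116, 101.1 and 77.3 CPM in NP. It held 10.3, 49.8, 16.6 and 34.3 CPM in IRV, against 53.0, 81.3, 49.5 and 89.6 CPM in NV. In 3 of 4 IRP libraries and 3 of 4 IRV libraries it lay below every uninjured library. The log2 fold change was -1.34 ± 0.56 (adjusted p = 0.062) in IRP against NP and -1.28 ± 0.60 (adjusted p = 0.12) in IRV against NV, and -1.31 ± 0.41 (adjusted p = 0.012) averaged over both. Without IRP replicate 2 it was called in both, at -2.57 ± 0.42 (adjusted p = 0.00025) and -1.34 ± 0.38 (adjusted p = 0.016), and without NP replicate 1 it was called in IRP against NP (-1.61, adjusted p = 0.045). All groups share 1 estimate of the spread in these fits.

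IRP replicate 2 differed from the other IRP libraries in more than the sterol enzymes. Its proximal tubule marker sum was 31030 CPM, beside 15010 to 20490 CPM in the other 3. Its tubular injury marker sum was 2502 CPM, beside 3387 to 4776 CPM in the others. IRV replicate 2 had a proximal tubule sum of 22150 CPM, close to the 21730 CPM of IRV replicate 4 and beside 14630 and 18320 CPM in replicates 1 and 3. Its tubular injury sum was 3190 CPM, beside 3755 to 4335 CPM in the other IRV libraries. The part of these markers in the levels of Cyp51 and Cyp7b1 was not tested.

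**Figure D3:**
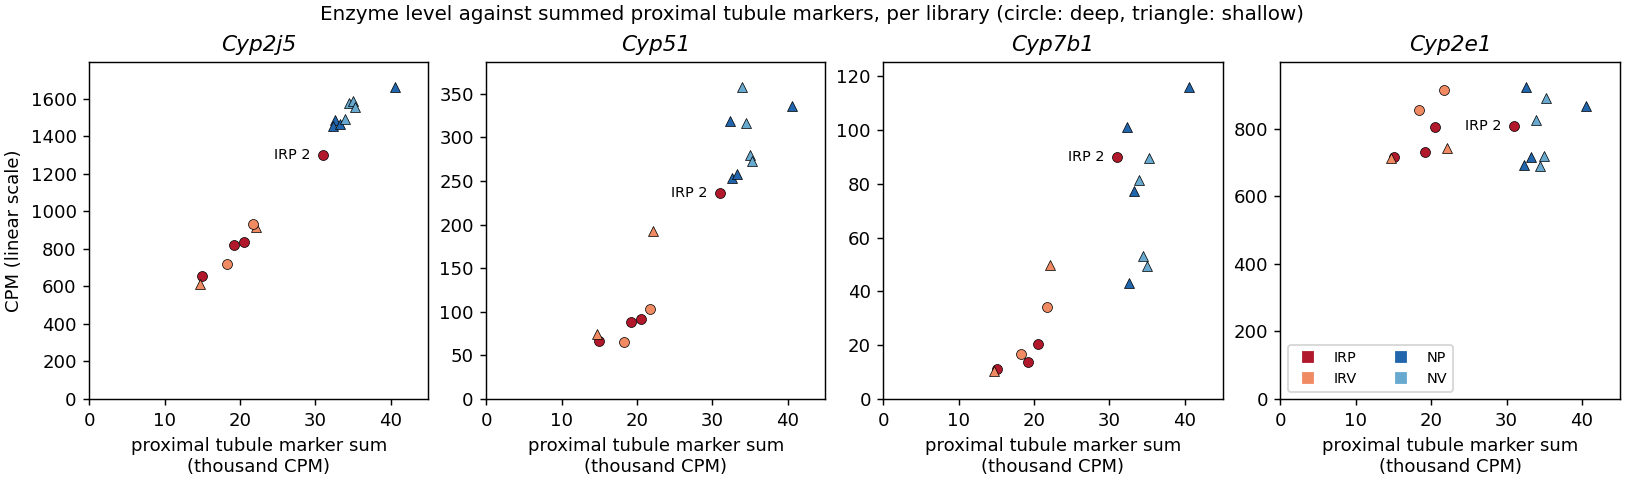
CPM of Cyp2j5, Cyp51, Cyp7b1 and Cyp2e1 (linear axes from 0) against the summed CPM of 22 proximal tubule markers per library, with groups by colour and depth by shape. Cyp2j5 lies near a line through all 16 libraries, IRP replicate 2 (1298 CPM) between the other injured and the uninjured ones, Cyp7b1 scatters among the uninjured libraries from 43.2 to 116 CPM, and Cyp2e1 is at a like level at both ends of the axis. The points share libraries and depth.

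The upstream regions of Cyp51 and Cyp2e1 are shown because these enzymes contrast, Cyp51 lower on all 3 scales in both comparisons and Cyp2e1 lower on none. RefSeq's table of regions before gene starts held 6 of the 10 genes. Each run below is the 250 bases before the RefSeq start on build GRCm38.p6, written 5′ to 3′ on the gene's strand. Capitals mark the motifs CCAAT and TATAAA, searched on both strands and chosen with the sequences in view; they share no letters in these regions. GENCODE M21 places the start of Cyp51 49 bases, and that of Cyp2e1 80 bases, farther upstream.
Cyp51, chr5:4104698-4104947, minus strand: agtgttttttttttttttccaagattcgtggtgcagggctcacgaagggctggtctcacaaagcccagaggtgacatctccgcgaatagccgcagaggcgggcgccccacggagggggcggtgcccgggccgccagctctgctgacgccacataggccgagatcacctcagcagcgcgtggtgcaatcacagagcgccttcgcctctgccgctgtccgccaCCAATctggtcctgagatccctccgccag
Cyp2e1, chr7:140763569-140763818, plus strand: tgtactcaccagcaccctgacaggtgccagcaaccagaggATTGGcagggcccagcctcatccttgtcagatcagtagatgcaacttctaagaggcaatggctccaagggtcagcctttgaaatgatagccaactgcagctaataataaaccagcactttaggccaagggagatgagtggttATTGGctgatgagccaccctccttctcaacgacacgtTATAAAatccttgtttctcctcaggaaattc

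In the Cyp51 region CCAAT began 29 bases before the RefSeq start, and TATAAA was not among its letters. The Cyp2e1 region held CCAAT on the other strand, written ATTGG, 210 and 68 bases before the start, and TATAAA 31 bases before it. Among the regions not shown, that of Cyp2d26, which fell in both comparisons, also held TATAAA 31 bases before its start, on the other strand. It held CCAAT 246 bases before the start. The region of Cyp2j5, which fell in both comparisons too, held TATAAA 128 bases before its start, on the other strand. Those of Cyp4b1 and Por held neither motif. Of all 32851 regions of this length, 33.8% held CCAAT and 12.4% held TATAAA on either strand. A match is a description of the letters and does not show that a factor binds there.

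Sterol synthesis and SREBP2 target genes, a list of 23 that does not hold Cyp51, mostly fell on the TMM scale, as Cyp51 did. Of 22 tested, 16 fell and none rose in IRV against NV, with a median of -0.78, beside 11.1% of all genes that fell. The same list had 18 fallen and none risen in IRP against NP, with a median of -0.93, beside 24% of all genes. Insig1, which helps hold SREBP in the endoplasmic reticulum, had log2 fold changes of -0.95 ± 0.17 in IRV against NV and -1.61 ± 0.16 in IRP against NP. Msmo1, Nsdhl and Sqle, which act in the same synthesis, had values of -1.05 ± 0.19, -0.85 ± 0.15 and -0.62 ± 0.15 in IRV against NV. Stard4, a sterol carrier, was at -0.75 ± 0.13. With library set as a covariate 8 and 5 of the 22 were called lower in the 2 comparisons, beside 6.13% and 0.786% of all genes, with medians of -0.62 and -0.66. With library totals 2 and 7 were called lower, beside 1.81% and 13.1% of all genes, with medians of -0.27 and -0.35. There 1 was called higher in each, beside 42% and 51.5% of all genes. On the proximal tubule scale 0 and 4 were called lower, beside 0.492% and 11.5% of all genes. The medians there were 0.10 and -0.16, the first with the sign turned. Of the 23 genes, 15 had a RefSeq region, and all of these held CCAAT and none TATAAA, beside 33.8% and 12.4% of all regions. The units are unlike, since a gene was counted if any of its regions held the motif. The motifs were chosen with sequences in view, and their part in the falls was not tested.

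PPAR-alpha targets other than the Cyp4a genes moved in both directions. Of 22 tested, 6 fell and 1 rose in IRV against NV, beside 11.1% and 15.9% of all genes. Of the same genes 8 fell and 2 rose in IRP against NP, beside 24% and 19.6% of all genes. The list had medians of -0.37 and -0.12, which became 0.16 and 0.46 with library totals and 0.47 and 0.65 on the proximal tubule scale. The mitochondrial fatty acid oxidation genes Acadm and Hadhb fell, Acadm by 1.16 and 0.76 and Hadhb by 0.58 and 0.52 on the log2 scale in the same order. Acaa2 fell by 0.95 and 0.52, and Fabp3, a fatty acid carrier, fell by 1.35 and 1.04. Angptl4, a lipoprotein lipase inhibitor and PPAR target, rose by 1.42 ± 0.27 (adjusted p = 0.0012) and 2.06 ± 0.27 (adjusted p = 4.6e-05), in the direction opposite to Cyp4a10 and Cyp4a14, and was higher on each scale tried. Of 6 androgen-responsive kidney genes, 1 fell and 1 rose in IRV against NV, and 2 fell and 1 rose in IRP against NP, counts near those shares of all genes, with medians of -0.16 and -0.23 that became 0.69 and 0.54 on the proximal tubule scale. Odc1, ornithine decarboxylase, fell in each, by 0.85 and 1.04, and Gusb rose by 1.11 and 0.72. Kap, the androgen-regulated kidney protein, was at -0.51 ± 0.23 and -0.38 ± 0.23, not past the threshold. Kap is also among the proximal tubule markers, so the androgen list and that scale share a gene.

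Of 10 tested electron donors and other partners of P450s, Por included, 3 fell and 1 rose in IRV against NV, beside 11.1% and 15.9% of all genes. In IRP against NP 3 fell and 2 rose, about the 24% and 19.6% of all genes. Cyb5a, the microsomal cytochrome b5, fell by 0.67 and 0.47, but was at 0.17 and 0.23 on the proximal tubule scale. Cyb5b, its mitochondrial form, fell by 0.48 in IRV against NV, and on the proximal tubule scale was higher, at 0.39. Fdx1, the ferredoxin that feeds mitochondrial P450s, fell by 0.97 ± 0.24 in IRP against NP, a value that was -0.18 ± 0.34 with library set as a covariate. Ephx1, microsomal epoxide hydrolase, rose by 0.92 ± 0.20 (adjusted p = 0.0024) and 1.56 ± 0.20 (adjusted p = 3.5e-05), and with library set as a covariate these values were 0.51 ± 0.22 and 0.92 ± 0.27, neither past the threshold.

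The 27 other tested P450s were called at about the rate of all genes. In IRV against NV 3 fell and 3 rose, beside 11.1% and 15.9% of all genes, and in IRP against NP 7 fell and 5 rose, beside 24% and 19.6%. They had medians of -0.16 and -0.24 that became 0.38 and 0.34 with library totals and 0.65 and 0.56 on the proximal tubule scale. By role, the 13 tested fatty acid hydroxylases had 4 fallen and 1 risen in IRV against NV and 5 fallen and 1 risen in IRP against NP. The 6 epoxygenases had 3 and 4 fallen, the 10 xenobiotic P450s 1 and 2 fallen with 2 risen in each, and the 7 sterol, vitamin and steroid P450s 1 and 1 fallen with 0 and 2 risen. Against the same shares of all genes, counts this small are given as a description. They include the enzymes described above, and on the proximal tubule scale the medians of all 4 roles were above 0 in both comparisons. The summed CPM of all P450 genes was 3540 ± 498 in IRV and 5420 ± 228 in NV, and 3780 ± 775 in IRP and 5560 ± 540 in NP (SD, n = 4 each), most of it from the enzymes described.

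The clearest rise among P450s was that of Cyp1b1, which oxidises steroids and polycyclic aromatic compounds. It averaged 94.0 ± 15.1 CPM in IRV and 22.8 ± 5.6 in NV, and 95.3 ± 27.2 in IRP and 24.8 ± 6.97 in NP (SD, n = 4 each). The log2 fold changes were 2.05 ± 0.25 (adjusted p = 2.8e-05) and 1.97 ± 0.24 (adjusted p = 3.1e-05), and they stayed past the threshold with library set as a covariate, at 1.87 ± 0.29 and 1.68 ± 0.37. Cyp4v3, a fatty acid hydroxylase of the Cyp4 family, rose by 1.74 ± 0.35 and 1.60 ± 0.33, but was at 1.22 ± 0.43 and 0.83 ± 0.48, not past the threshold, with library set as a covariate. Cyp2d22 rose by 1.04 ± 0.28 and 0.68 ± 0.25, while its family member Cyp2d26 fell. Fitted with library set as a covariate Cyp2d22 was at 0.55 ± 0.35 and -0.05 ± 0.38, the second with the opposite sign. Cyp39a1 and Cyp20a1 rose in IRP against NP, by 0.86 ± 0.27 and 0.73 ± 0.23, and neither was called with the covariate.

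Among the falls, Cyp2c23, a renal epoxygenase like Cyp2j5, was lower by 0.91 ± 0.30 (adjusted p = 0.032) in IRV against NV and by 0.88 ± 0.29 (adjusted p = 0.02) in IRP against NP. Its fall was larger with library set as a covariate, -1.75 ± 0.40 and -2.04 ± 0.47. Scaled to the proximal tubule markers it was -0.18 ± 0.30 and -0.17 ± 0.29. Cyp2j11, a relative of Cyp2j5, fell by 0.53 and 0.47, and Cyp2j13 fell by 0.61 in IRP against NP, while on the proximal tubule scale these values were 0.32, 0.22 and 0.14. Cyp4a31, the near copy of Cyp4a10, fell by 0.55 and 0.60, and was at -0.04 in each with library totals and at 0.30 and 0.15 on the proximal tubule scale. Cyp4x1 and Cyp3a11 had the largest drops, of 4.18 ± 0.99 and 4.05 ± 0.99 in IRP against NP, at mean levels of 0.631 and 0.403 CPM in IRP against 12.2 and 6.99 CPM in NP. With library set as a covariate these were 0.76 ± 0.97 and -0.03 ± 0.55, and in IRV against NV within the shallow libraries they were -0.01 ± 0.55 and 0.10 ± 0.51.

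**Figure D4:**
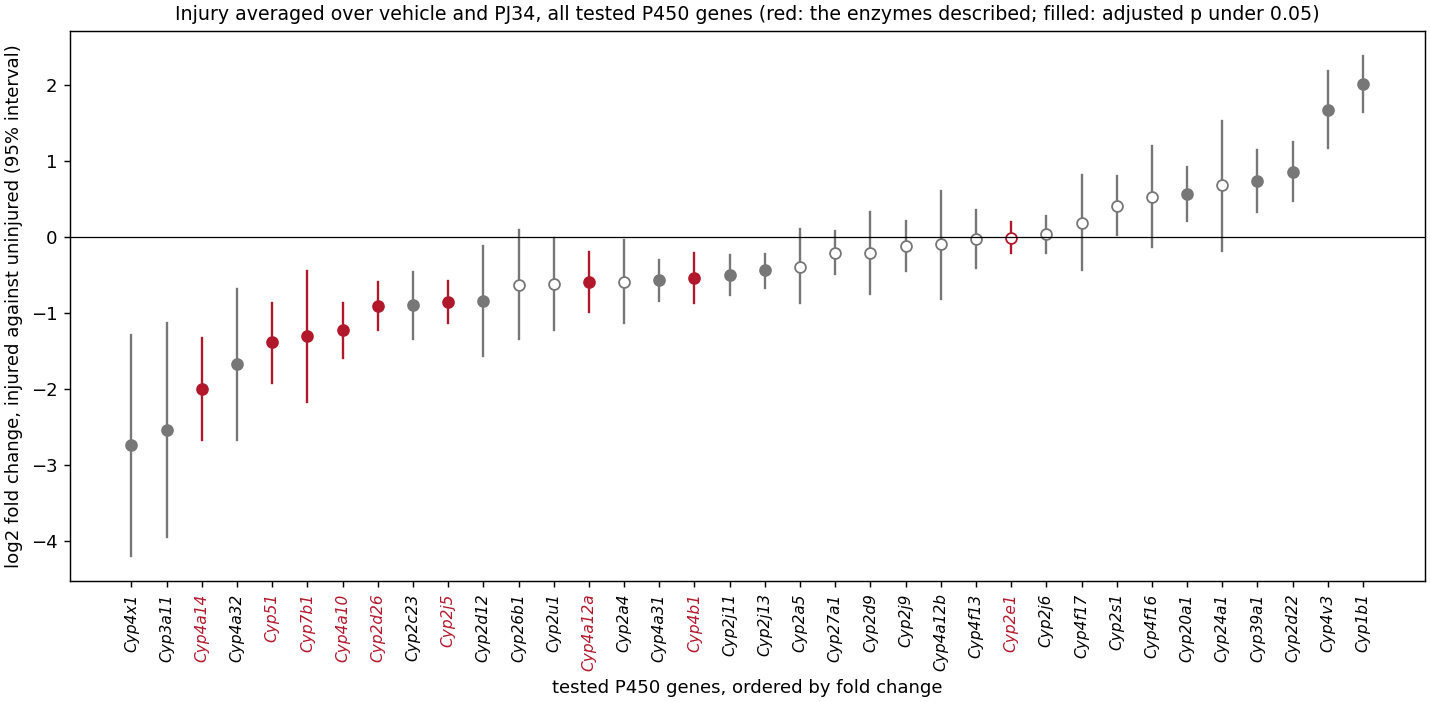
Log2 fold change of injured against uninjured kidneys, averaged over both treatments, with 95% intervals, for the 36 tested P450 genes in order, those described here in red and filled points with an adjusted p under 0.05. Cyp1b1 is at the right end at 2.01, Cyp2e1 sits at -0.01, and the other described P450s lie between -0.54 and -2.

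PJ34 gave no call in any of the 10 enzymes, in injured or in uninjured kidneys, and the background was also 0% in each comparison. In IRP against IRV edgeR called 0 of 13614 genes, with 1832 at an unadjusted p under 0.05 and none of the 10 among them. That 0 rests on single libraries and on the scale. Without IRV replicate 3 edgeR called 9 genes higher and 1451 lower, and without IRV replicate 4 it called 13 higher and 1447 lower. Those replicates are the deep libraries of IRV, while all of IRP was deep, so PJ34 and library set partly run together here. Without IRV replicate 1 or 2 edgeR called 0 genes. With library set as a covariate it called 0, with 208 genes at an unadjusted p under 0.05. Within the deep libraries it called 0, with 302 at that level. It called 1 higher and 421 lower with library totals, 0 higher and 552 lower on the proximal tubule scale, and 9 higher and 1083 lower without a filter on low counts. None of the 10 was called in any of these. DESeq2 called 5 genes higher and 1277 lower there, with none of the 10, and limma-voom called none. The log2 fold changes of the 10 ran from -0.39 for Cyp4a14 to 0.38 for Cyp2d26, with a median of 0.17 beside 0.02 over all genes, and the groups overlapped for all 10, where 3.42% of all genes did not overlap. Cyp2d26 had the lowest adjusted p of the 10, 0.49, at 38.2 ± 10.4 CPM in IRP and 29.2 ± 6.11 CPM in IRV (SD, n = 4 each). The intervals leave room for sizable differences: that of Cyp2d26 was -0.05 to 0.81, that of Cyp4a14 -1.32 to 0.54 and that of Cyp7b1 -0.95 to 1.44, while that of Cyp2e1 was -0.36 to 0.20. Within the deep libraries, Cyp2d26 was at 0.44 ± 0.26 and Cyp4b1 at -0.10 ± 0.26. Without IRP replicate 2, whose sterol enzymes were high, the Cyp7b1 value was -0.92, the lowest of any library left out, and the Cyp51 value -0.43.

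In uninjured kidneys, NP against NV gave log2 fold changes from -0.65 for Cyp4a12a to 0.31 for Cyp7b1. edgeR called 0 genes, with 501 at an unadjusted p under 0.05. Cyp4a12a was the only enzyme of the 10 among those (-0.65 ± 0.28, unadjusted p = 0.034, adjusted p = 1), at 18.4 ± 5.25 CPM in NP and 29.2 ± 12.1 CPM in NV, with overlapping values. The groups overlapped for all 10, where 2.43% of all genes did not overlap. DESeq2 called 3 genes higher and 1 lower, with none of the 10, and limma-voom called 0. The interaction of PJ34 with injury, which asks whether the injury effect differed between treatments, gave 0 calls among all genes, with 1550 at an unadjusted p under 0.05 and none of the 10. Without IRV replicate 3, a deep library, it gave 5 genes higher and 414 lower, again with none of the 10. With library set as a covariate it gave 0 calls, with 428 genes at an unadjusted p under 0.05. DESeq2 called 1 gene higher and 21 lower for it, with none of the 10, and limma-voom called 0. Its values ran from -0.48 ± 0.62 for Cyp4a14 to 0.46 ± 0.37 for Cyp4a12a.

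For the enzymes named here the tested genes with the most similar pattern of log2 CPM over the 16 libraries were listed among 10430 candidates, as a description, since the libraries share groups and depth. Cyp2j5 had the closest match of the 10, Galnt11 with a Pearson r of 0.991, followed by Cat, catalase, and Pdha1 at 0.99. Cyp4a10 was nearest to Retsat (r = 0.954), Cyp4b1 to Akr7a5 (0.944), Cyp2d26 to Acss1 (0.952) and Por to Pkp4 (0.981). Cyp7b1 and Cyp51 shared Mpv17l among their 3 nearest genes, at r of 0.967 and 0.973. The 3 nearest genes to Cyp4a14 were Zfp938 (0.875) and the sterol genes Msmo1 (0.858) and Insig1 (0.846).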

How the data were processed

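Whole-kidney poly(A) RNA was sequenced in 16 libraries. The authors deposited a table of unnormalised expected counts, all of them whole numbers. The submitters' processing notes name FastQC (0.11.3), Trim Galore (0.6.6), Salmon (1.3.0), DESeq2 (1.30.1) and the GRCm39 build, without giving their settings. Rounding changed 0 values. Symbols were matched by Ensembl ID for 40276 of 40472 genes. Totals of 973812 to 6169748 counts set the precision. The sources used here do not say whether molecular identifiers were counted.

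Genes passing filterByExpr of edgeR 4.0.16 (R 4.3.3) at its minimum count of 10 were fitted with its quasi-likelihood test on TMM-scaled counts, all 16 libraries together with group as the only term. In all, 6 contrasts were made, and p-values were Benjamini-Hochberg adjusted over all tested genes, with a threshold of 0.05; errors of fold changes are SE, intervals are 95%. The analysis was tested on simulated data. Deep and shallow sets were divided by total count. Alternatives were RLE size factors, library totals, proximal tubule scaling, no filter, a replicate block, library set as a covariate, single sets, only the 2 groups compared, each library left out, near copies summed, DESeq2 1.42.0 and limma-voom (limma 3.58.1).

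All 10 enzymes are named. Of each gene list up to 5 members with the smallest p for the averaged injury effect could be named, and for likeness the 3 genes with the highest r. Some likeness results are not reported here. The enzymes and lists were chosen with earlier results of these data known. No 2 libraries of a group agreed within counting noise, which does not show that they come from separate animals.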

Additional observations from a re-analysis of the deposited data

Results flagged for a closer look

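Among the 40 sets of 4 values that the 10 enzymes give over the 4 groups, 3 had a library far from the others by Dixon's criterion, which chance meets in about 1 of 20 sets. Cyp7b1 stood at 90.04 CPM in IRP replicate 2, against 20.41 CPM in the next library of that group. Cyp51 stood at 235.9 CPM in the same library, against 91.93 CPM in the next. Cyp2j5 stood at 1663 CPM in NP replicate 2, against 1487 CPM in the next, in the library with the highest proximal tubule marker sum of its group, 40550 CPM. Without IRP replicate 2, Cyp7b1 was called in IRP against NP. Whether the cells present in these libraries account for the values was not tested.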

How the results depend on the processing

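Over the alternatives, 1025 fold changes kept direction and side of the threshold, 26 newly passed it, 46 no longer passed it and 46 turned direction. These counts cover every enzyme in both injury comparisons, their average and IRP against IRV. For NP against NV they hold only Cyp4a12a, Cyp7b1 and Cyp2d26, and for the interaction only Cyp4a14 and Cyp4a12a. Other turns are not counted, such as Cyp51 in the interaction, at -0.35 to 0.65 with a library left out. The count of enzymes called, 7 in IRV against NV, 6 in IRP against NP and 9 averaged, was 4, 1 and 5 with library set as a covariate. On the proximal tubule scale, which counts Cyp2e1 as higher, it was 3, 3 and 5. It was 3 and 3 in the first pair without a filter on low counts, and 3 in IRP against NP with library totals. With the replicate block it was 9, 8 and 9. The labels do not tie replicate numbers across groups, and 4 of 16 same-numbered pairs correlated above 0.1 (range -0.23 to 0.26). Differently numbered pairs were not compared, so these values do not settle whether the libraries were paired. DESeq2 called 8 and 7, limma-voom 7 and 7.

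Among the values counted above, directions turned as follows, and beyond the shift in scale the cause was not tested. Cyp2e1, at -0.01 averaged, was 0.54 with library totals, 0.36 without a filter and 0.81 on the proximal tubule scale, and -0.11 to 0.02 with a library left out. In IRP against NP it was 0.52, 0.37 and 0.70. In IRV against NV it was -0.10 with library set as a covariate, -0.02 with only the 2 groups, -0.11 within the shallow libraries and -0.08 to 0.11 with a library left out. On the proximal tubule scale Cyp4a12a was 0.20 averaged, 0.40 in IRP against NP and 0.01 in IRV against NV, Cyp4b1 was 0.24, 0.22 and 0.27, and Por was 0.02 averaged and 0.08 in IRP against NP. In IRP against NP Cyp4a12a was 0.21 with library totals and 0.07 without a filter. Cyp4b1 was 0.05 there and 0 averaged with library totals.

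In IRP against IRV, Cyp2e1 was 0.04 without a filter, Cyp4b1 -0.11 with the covariate and -0.10 within the deep libraries, Cyp51 -0.06 and Cyp7b1 -0.04 on the proximal tubule scale, and Cyp7b1 -0.17 with limma-voom. Leaving out a library gave -0.07 to 0.31 for Cyp2j5, -0.03 to 0.32 for Cyp4b1, -0.43 to 0.57 for Cyp51 and -0.92 to 0.58 for Cyp7b1. Counts of 85 to 134 over 4 libraries limit Cyp4a12a.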
